A study of Mus musculus with 11 samples.

Results

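The genes described here are the kinases and phosphatases, by gene name, of a signature that the study's authors deposited for leukaemia progression in mouse granulocyte-macrophage progenitors (GMPs). A row of the signature table belongs if its gene name holds "kinase" or "phosphatase" and neither "transcription" nor "zinc finger", which 35 of 638 genes do. The second condition removed 0 genes. The letters of the rule also take in regulatory subunits, inhibitors, substrates and binding partners, and Plaur, whose name holds "urokinase", a protease and not a kinase. GMPs are the bone marrow progenitors of neutrophils and monocytes.

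Expression was measured on 11 Affymetrix mouse arrays of GMPs sorted from pools of mice, which the labels call biological replicates. The 4 control arrays came from mice with 1 floxed Ctnnb1(Ex3) allele and, as the dash in "MxCre–" was read, without the Cre recombinase. The 3 arrays titled Irf8 KO came from mice without Irf8, which per the series text also carried the floxed allele. The 4 arrays titled Irf8 KO / b-cat(Ex3) came from Irf8-deficient mice in which exon 3 of 1 Ctnnb1 allele had been excised, which stabilises beta-catenin, the transcriptional effector of Wnt signalling. Mx-driven Cre is induced by interferon and is not restricted to GMPs. All groups, controls included, had been injected with 400 µg of poly(I:C), an inducer of interferon, on each of days 0, 3 and 5, and bone marrow was harvested 10 to 14 days later. The age of the mice is not given in the labels. Irf8 is a transcription factor that directs progenitors towards monocytes, and its loss causes a disease in mice that resembles chronic myeloid leukaemia.

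Protein kinases transfer phosphate from ATP to tyrosine or to serine and threonine of other proteins, and phosphatases remove it. In myeloid progenitors, cytokine and integrin receptors signal through tyrosine kinases and through cascades of mitogen-activated protein (MAP) kinases, whereas calcium, diacylglycerol and cyclic AMP act on further kinases and on the phosphatase calcineurin. Kinases and phosphatases of small molecules set the flow through glycolysis, gluconeogenesis and nucleotide and cofactor synthesis.

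The signature table names neither its groups nor its probe sets, so it was set against the deposited value table of 45037 probe sets on the 11 arrays. For all 638 rows a probe set had the same log2 difference, within 0.0005, between Irf8 KO / b-cat(Ex3) and control. For the 268 rows of at least 2-fold this held in 268 rows, against 20 for Irf8 KO / b-cat(Ex3) minus Irf8 KO and 73 for Irf8 KO minus control. The deposited fold change is therefore read as Irf8 KO / b-cat(Ex3) over control, and a positive value as higher expression with activated beta-catenin and without Irf8. Because a single probe set had the deposited fold in 13 of the 35 members, its array values were taken as that gene's. In 4 more members several probe sets shared the fold, and a single one was left after some were dropped. Dropped were those whose p-value exceeded the deposited p-value by over 15.1-fold, the largest ratio among rows with a single candidate. Probe sets already held by such a row were dropped too. For the other 18 members no array values were assigned. The matched members tend to have larger fold changes, since fewer probe sets share those, and are not a sample of all 35.

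The rows of the signature were chosen by their authors on the difference between Irf8 KO / b-cat(Ex3) and control, so that difference is a description here and supports nothing. Irf8 KO minus control and Irf8 KO / b-cat(Ex3) minus Irf8 KO were tested with limma over all probe sets. Both share arrays with the difference that chose the members, and their p-values are not independent of that choice. Whether the Irf8 KO arrays also entered the authors' selection is not given in the sources used here. Among the 184 other genes with a single probe set of equal fold, the smallest Irf8 KO minus control difference along the deposited direction was 0.155.

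The targeted gene was lower without Irf8 but still measured. Irf8 read 9.38, 9.46, 9.78 and 9.23 on the log2 scale in the control arrays, 8.60, 7.90 and 8.89 in Irf8 KO and 8.35, 8.63, 7.51 and 7.77 in Irf8 KO / b-cat(Ex3). The control arrays lay above all others. Irf8 KO minus control was −0.998 ± 0.279 (SE), which did not pass over all probe sets (limma, adjusted p = 0.116), and whether the probes lie in the deleted part of the gene is unknown. Correlations between arrays ran from 0.964 to 0.994. Control replicate 4 stood apart from the other controls (mean correlation with its own group 0.984, against 0.989 to 0.991), and the Irf8 KO / b-cat(Ex3) arrays spread more (0.979 and 0.982 in replicates 2 and 3, 0.987 and 0.985 in replicates 1 and 4). The neutrophil marker Cd177 read 6.82 in control replicate 4 and 3.73 to 4.17 in the other controls.

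Markers of other cell types moved in the signature as well. The table held 2 of 14 neutrophil markers, both positive, 3 of 11 monocyte and macrophage markers, 2 of them positive, and, all negative, 2 of 14 erythroid and megakaryocyte, 2 of 12 eosinophil, basophil and mast cell, 3 of 10 stem and multipotent progenitor, 1 of 9 T and NK cell and 2 of 9 dendritic cell markers. The dendritic cell markers listed were Irf8, the targeted gene itself, and Tcf4 (−0.608 in the authors' deposited table). The table held 0 of 8 B cell and 0 of 12 GMP markers. Beside these counts, 2.78% of RefSeq protein-coding genes were listed, so 0 genes in lists this short says little about these cells. The labelled cell type was not checked further because the value table gives probe sets without gene names. Cd177 ran from 3.73 to 6.82 in the controls, from 6.32 to 7.54 in Irf8 KO and from 7.35 to 9.57 in Irf8 KO / b-cat(Ex3), and the erythroid Car1 from 5.07 to 6.89, 2.71 to 3.32 and 2.58 to 2.89. In sorted bulk samples, fewer cells of a type and less RNA per cell cannot be told apart. The part of these cells in the values below was not tested.

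Of the 35 members, 22 had a positive and 13 a negative value in the table that the authors deposited. The positive share of 62.9% (exact binomial 95% interval 44.9 to 78.5%, counting error only) stood beside 61.8% over all 638 genes. The median size was 1.98-fold for the members and 1.89-fold for the table, and 17 members (48.6%) had at least a 2-fold value, against 268 of all 638 rows (42.0%), in the authors' deposited table. Deposited sizes ran from 0.591 (Ppp3cb) to 1.985 (Fbp1) on the log2 scale. The authors' smallest listed change is just over 1.5-fold, so Ppp3cb, at 1.51-fold in the authors' deposited table, lay just inside that limit, and genes outside it are not listed. Deposited p-values of the members ran from 9.87e-06 (Ppm1f) to 0.00156 (Prkcb).

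**Figure D1:**
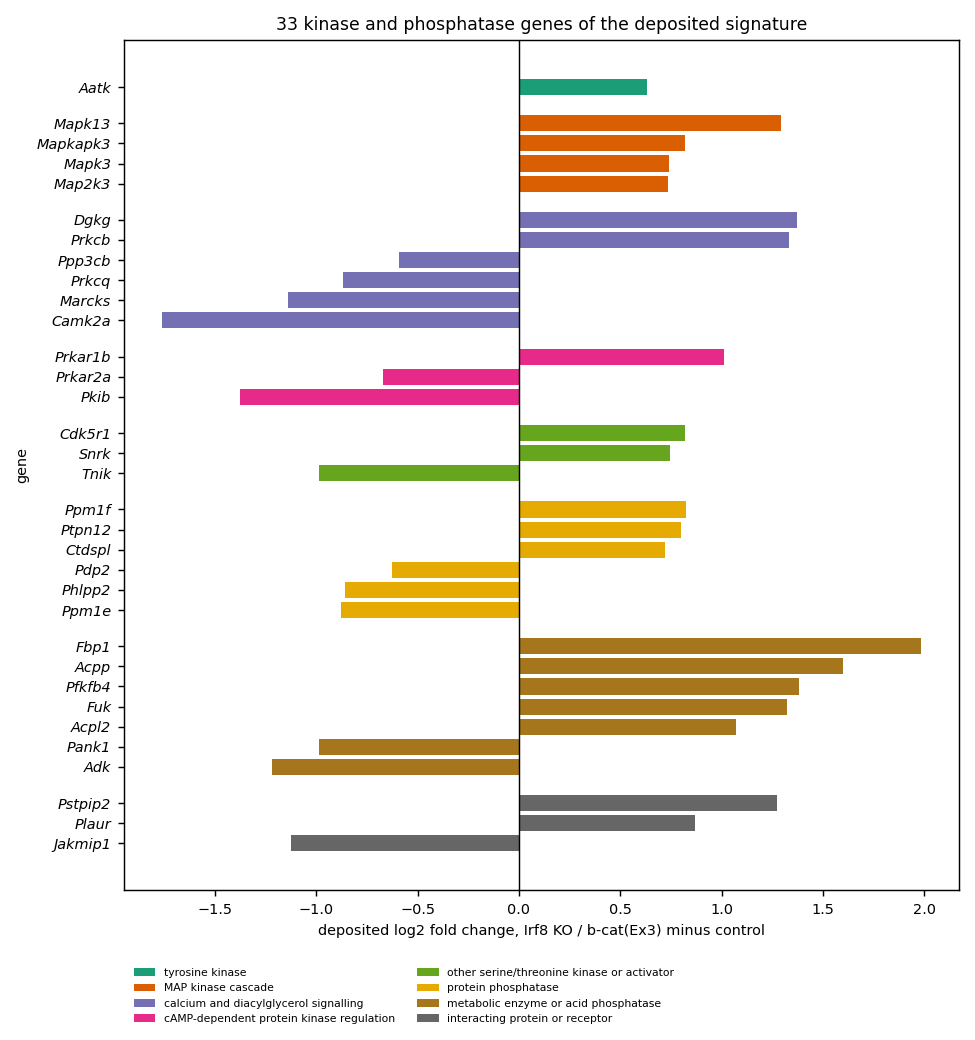
Deposited log2 fold change, Irf8 KO / b-cat(Ex3) minus control, of 33 of the 35 members, with bars from 0 coloured by hand-assigned role. The 4 MAP kinase cascade genes are all positive, while 4 of the 6 calcium and diacylglycerol genes are negative, and Fbp1 (1.985) and Camk2a (−1.761) mark the ends.

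Promoter sequence is shown for 3 members whose array values are described below, because each holds a match to a factor of this model: PU.1, a partner of Irf8, in Fbp1; the interferon regulatory factor element that Irf8 can bind in Mapkapk3; and the TCF/LEF element through which beta-catenin acts in Pkib. Each window runs 5′ to 3′ on the gene's strand from 250 bases before to 50 bases after the annotated start (RefSeq, GRCm38.p6), and the capitals mark the match.
Fbp1 (chr13:62888233-62888532, minus strand): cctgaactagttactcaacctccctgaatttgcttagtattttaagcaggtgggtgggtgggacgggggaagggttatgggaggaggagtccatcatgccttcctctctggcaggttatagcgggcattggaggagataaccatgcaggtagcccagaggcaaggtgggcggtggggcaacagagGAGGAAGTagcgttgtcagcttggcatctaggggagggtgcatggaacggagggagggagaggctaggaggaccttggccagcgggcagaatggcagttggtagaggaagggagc
Mapkapk3 (chr9:107289347-107289646, minus strand): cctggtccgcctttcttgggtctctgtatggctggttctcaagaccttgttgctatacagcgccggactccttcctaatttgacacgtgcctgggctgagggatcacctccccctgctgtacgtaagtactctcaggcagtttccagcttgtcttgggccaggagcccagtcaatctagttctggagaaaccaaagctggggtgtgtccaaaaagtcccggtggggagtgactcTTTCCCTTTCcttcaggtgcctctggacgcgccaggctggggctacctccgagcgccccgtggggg
Pkib (chr10:57645619-57645918, plus strand): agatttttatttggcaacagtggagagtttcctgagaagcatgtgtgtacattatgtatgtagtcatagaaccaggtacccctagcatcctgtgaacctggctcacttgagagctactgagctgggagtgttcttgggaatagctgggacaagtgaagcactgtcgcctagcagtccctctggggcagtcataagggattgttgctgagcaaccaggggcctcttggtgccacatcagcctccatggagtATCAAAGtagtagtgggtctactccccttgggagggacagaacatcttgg
The letters searched, on both strands, were GAGGAAGT for PU.1, GAAANNGAAA for the interferon regulatory factors and CTTTGAT for TCF/LEF. Promoter windows were given for 25 of the 35 members. A gene was counted if any of its windows matched. The members had 38 windows, against 32851 for all 27025 genes, so more sequence was searched per member. The PU.1 letters stood in 1 of those 25 (4%) against 3.69% of all genes, the interferon regulatory factor letters in 2 (8%, Mapkapk3 and Ppp3cb) against 3.99%, and the TCF/LEF letters in 1 (4%) against 4.29%. A match is a description of these letters and not a site shown to be used.

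Among tyrosine kinase genes, Aatk, named for its expression during apoptosis of myeloid cells, had a value of 0.633 in the authors' deposited table. Of 40 receptor tyrosine kinases in the fixed lists the signature held the insulin receptor Insr alone, at 0.616 in the authors' deposited table, against 2.78% of RefSeq protein-coding genes listed (the genes the authors tested are not known). The lists, here and below, were chosen with earlier results of these data known, and 24 of the 32 signature genes on them are members. A share above 2.78% is therefore no evidence of an excess.

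The 4 MAP kinase cascade genes were all positive, 4 of the 51 on the fixed list (7.84%). Map2k3, which phosphorylates the stress-activated p38 kinases, stood at 0.735 in the authors' deposited table. Mapk13, the delta member of that kinase family, stood at 1.293, and Mapkapk3, a kinase that p38 activates, at 0.820 (authors' deposited table). Mapk3, the growth factor-activated kinase ERK1, stood, in the authors' deposited table, at 0.738. The 23 dual specificity and MAP kinase phosphatases, which switch these kinases off, had 0 genes in the signature, where 2.78% of all protein-coding genes were listed. In a list this short, 0 genes says little. Listed with a positive value were 1.74% of RefSeq protein-coding genes, and with a negative one 1.04%.

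Mapk13 had the larger of its differences between the Irf8-deficient groups. It read 4.81, 4.55, 4.66 and 5.25 in the control arrays, 5.19, 5.24 and 5.47 in Irf8 KO and 5.55, 5.51, 6.54 and 6.85 in Irf8 KO / b-cat(Ex3). Irf8 KO overlapped with control replicate 4, and the Irf8 KO / b-cat(Ex3) arrays lay above both other groups but spread widely, with replicates 3 and 4 well above replicates 1 and 2. Irf8 KO minus control was 0.48 ± 0.30 (limma, adjusted p = 0.57), and Irf8 KO / b-cat(Ex3) minus Irf8 KO was 0.81 ± 0.30 (adjusted p = 0.625), so neither step passed. Mapkapk3 averaged 8.65 ± 0.16 (SD, n = 4) in control, 9.24 ± 0.05 (n = 3) in Irf8 KO and 9.47 ± 0.13 (n = 4) in Irf8 KO / b-cat(Ex3). None of its 3 groups overlapped. It rose by 0.59 ± 0.11 (SE) in Irf8 KO (limma, adjusted p = 0.0232), while the further 0.23 ± 0.11 did not pass (adjusted p = 0.731). The rise lost its call without control replicate 1 or 2, or without any single Irf8 KO array (limma, adjusted p up to 0.11).

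Of the 6 members assigned by hand to calcium and diacylglycerol signalling, 2 were positive and 4 were negative. Prkcb, the beta isoform of protein kinase C, stood at 1.334 in the authors' deposited table, and Prkcq, the theta isoform best known from T cells, at −0.867. Dgkg, a diacylglycerol kinase that removes the lipid activating protein kinase C, stood at 1.369, and Marcks, an abundant membrane substrate of protein kinase C, at −1.139 (authors' deposited table). Camk2a, the alpha subunit of a calcium/calmodulin-dependent kinase best known from neurons, had the lowest value of all members at −1.761 (3.39-fold), and Ppp3cb, a catalytic subunit of calcineurin, stood at −0.591 (authors' deposited table). Of 39 calcium/calmodulin-dependent and AMPK-related kinases on the fixed list Camk2a alone was in the signature (2.56%, near the 2.78% of all protein-coding genes). The 53 genes of the AGC and lipid-activated kinase list had 6 in it (11.3%), 3 positive and 3 negative.

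Dgkg was the member with the smallest adjusted p for Irf8 KO minus control. It read 5.70, 5.99, 5.75 and 5.99 in the control arrays, 7.19, 6.84 and 6.85 in Irf8 KO and 7.20, 7.06, 7.30 and 7.34 in Irf8 KO / b-cat(Ex3). Every array without Irf8 lay above every control, and both Irf8-deficient groups overlapped. It rose by 1.11 ± 0.13 in Irf8 KO (2.15-fold, limma, adjusted p = 0.000754), and the difference between the Irf8-deficient groups, 0.26 ± 0.13, did not pass (adjusted p = 0.727).

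Camk2a showed the same order on the negative side. It read 5.72, 5.86, 5.46 and 5.89 in the control arrays, 4.29, 4.16 and 5.05 in Irf8 KO and 4.01, 4.15, 3.63 and 4.09 in Irf8 KO / b-cat(Ex3). All 3 groups were separate, with Irf8 KO replicate 3 nearest to control, but the Irf8-deficient groups only barely so (4.16 against 4.15). Apart from Irf8 KO replicate 3, the readings without Irf8 lay near the medians of those arrays, 3.92 to 4.04. Camk2a fell by 1.24 on the log2 scale (SE 0.21) in Irf8 KO (2.35-fold, limma, adjusted p = 0.00973). That fall did not pass without Irf8 KO replicate 1 (limma, adjusted p = 0.0637) or Irf8 KO replicate 2 (adjusted p = 0.0534). The further difference was −0.53 ± 0.21 and did not pass (adjusted p = 0.645). Prkcb read 4.31, 5.03, 4.89 and 5.61 in control, 6.67, 6.11 and 5.47 in Irf8 KO and 6.12, 6.10, 6.45 and 6.51 in Irf8 KO / b-cat(Ex3). Control replicate 4 lay above Irf8 KO replicate 3, so these groups overlapped. Its Irf8 KO minus control difference of 1.12 ± 0.30 did not pass (limma, adjusted p = 0.0996). It was 1.33 and passed without control replicate 4 (limma, adjusted p = 0.0322), and 1.43 without Irf8 KO replicate 3 (adjusted p = 0.0478). Without Irf8 KO replicate 1 it was 0.825 (limma, adjusted p = 0.37) and without control replicate 1 0.903 (adjusted p = 0.231). The further difference was 0.22 ± 0.30, and −0.09 without Irf8 KO replicate 3.

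**Figure D2:**
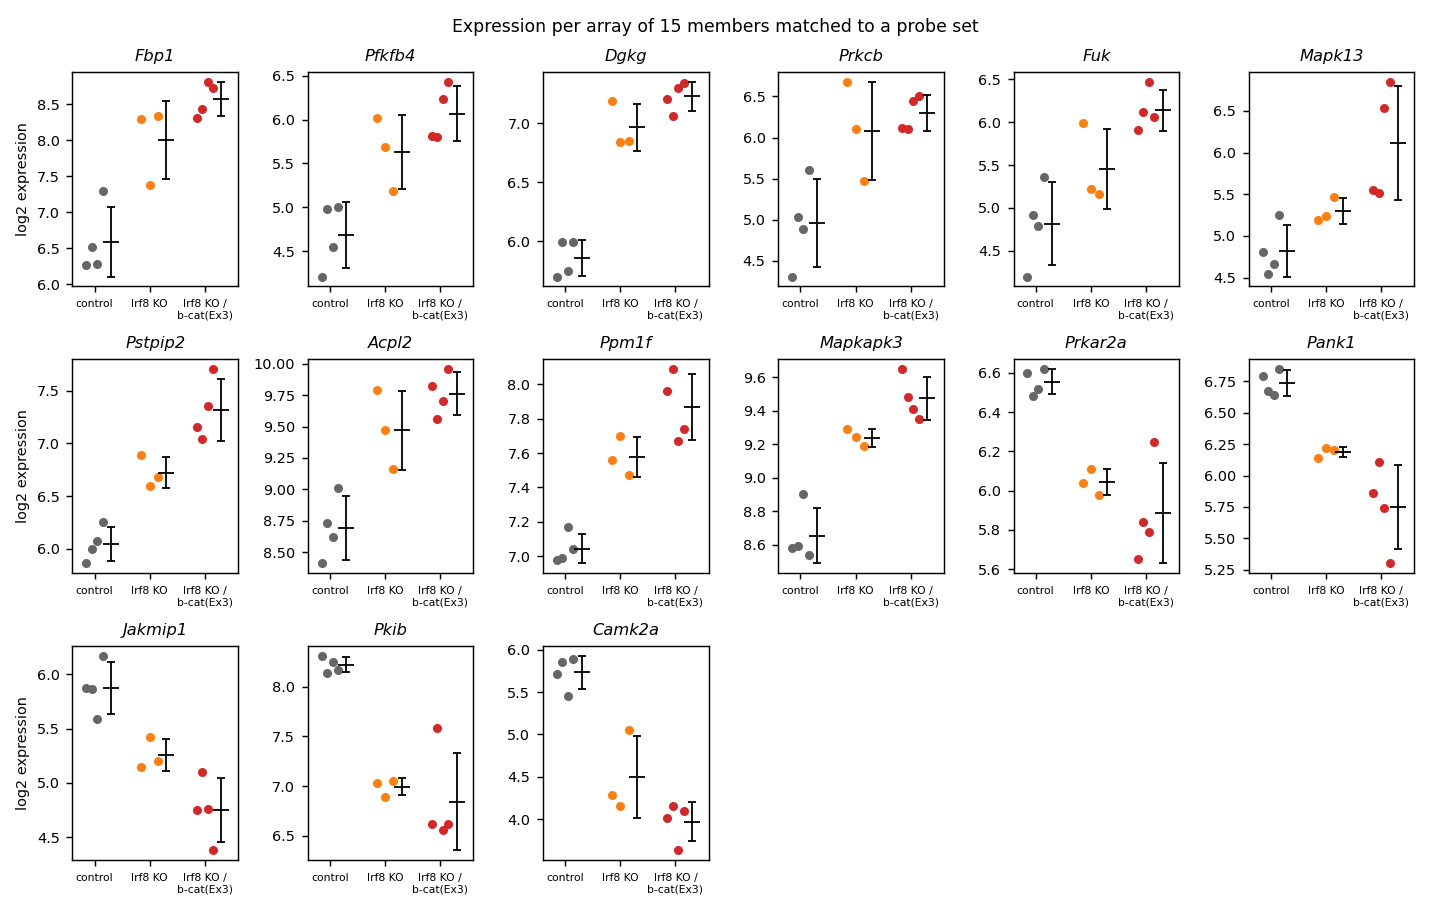
Log2 expression per array (vertical axis, scaled per gene) of 15 of the 17 members matched to a probe set, ordered by deposited fold change, in the 3 groups (horizontal axis). Each point is an array, and bars give the mean and SD. Dgkg, Pkib and Camk2a are separated between control and Irf8 KO, whereas for Prkcb, Fuk and Mapk13 control replicate 4 reaches the Irf8 KO range.

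Regulators of the cyclic AMP-dependent protein kinase (PKA) also pointed in different directions. Prkar1b and Prkar2a encode regulatory subunits that hold the kinase inactive until cyclic AMP binds, and stood at 1.011 and −0.671 in the authors' deposited table. Pkib encodes an inhibitor peptide of the same kinase and stood at −1.374 in the authors' deposited table. Pkib read 8.31, 8.14, 8.25 and 8.17 in the control arrays, 7.03, 6.89 and 7.05 in Irf8 KO and 6.62, 7.58, 6.56 and 6.62 in Irf8 KO / b-cat(Ex3). The controls lay more than 0.5 above all other arrays, and within the last group replicate 2 was above the Irf8 KO arrays. Pkib fell by 1.22 on the log2 scale (SE 0.21) in Irf8 KO (2.34-fold, limma, adjusted p = 0.0105). That fall did not pass without Irf8 KO replicate 1 (limma, adjusted p = 0.0504) or Irf8 KO replicate 2 (adjusted p = 0.0562). Without Irf8 KO / b-cat(Ex3) replicate 2 its adjusted p was 5.51e-05 (limma). The difference between the Irf8-deficient groups was −0.15 ± 0.21 (adjusted p = 0.909). Leaving out Irf8 KO / b-cat(Ex3) replicate 2 made that difference −0.39, which did not pass either (limma, adjusted p = 0.316). Prkar2a, matched with the help of its p-value, averaged 6.56 ± 0.07 (SD, n = 4), 6.04 ± 0.07 (n = 3) and 5.88 ± 0.26 (n = 4) in control, Irf8 KO and Irf8 KO / b-cat(Ex3). Its first-step difference, −0.51 ± 0.13 (SE), did not pass (limma, adjusted p = 0.0825). The 15 A-kinase anchoring proteins, which tether these subunits, had 0 genes in the signature, against 2.78% of all protein-coding genes, which says little for so short a list.

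Among other serine/threonine kinases and their activators, Cdk5r1 (an activator of the kinase Cdk5) stood at 0.819 and Snrk (a kinase related to AMPK) at 0.746 in the authors' deposited table. Tnik, a kinase that binds beta-catenin and a TCF/LEF factor and promotes Wnt target transcription in intestinal cells, stood at −0.984 in the authors' deposited table. It was the single listed gene of 77 Wnt and stress signalling kinases (1.30%, against 2.78% of all protein-coding genes). Of the 60 cell cycle and mitotic kinases, phosphatases and inhibitors the signature held 1 (1.67%), Atm, the DNA damage kinase, at −0.719 (authors' deposited table).

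With Ppp3cb of calcineurin, given above, the protein phosphatases among the members were 3 with a positive and 4 with a negative value. The related phosphatases Ppm1f and Ppm1e, which both act on calcium/calmodulin-dependent and p21-activated kinases, had opposite signs, 0.823 and −0.878 in the authors' deposited table. Ptpn12, a tyrosine phosphatase of focal adhesion proteins, stood at 0.797 and Ctdspl, a small phosphatase of the RNA polymerase II tail, at 0.722 (authors' deposited table). Phlpp2, which dephosphorylates kinases of the AGC family, had −0.857, and Pdp2, which reactivates pyruvate dehydrogenase, −0.626 in the authors' deposited table. The fixed list of 55 serine/threonine phosphatases had 5 genes in the signature (9.09%, against 2.78% of all protein-coding genes), 1 positive and 4 negative, and that of 38 tyrosine phosphatases had Ptpn12 alone (2.63%). As the lists were chosen with earlier results known, the 9.09% is no evidence of an excess. Ppm1f averaged 7.05 ± 0.09 (SD, n = 4) in control, 7.58 ± 0.12 (n = 3) in Irf8 KO and 7.87 ± 0.19 (n = 4) in Irf8 KO / b-cat(Ex3). Its rise of 0.53 ± 0.12 (SE) in Irf8 KO was just inside the threshold (limma, adjusted p = 0.0489). The call was lost with each array centred on its median (adjusted p = 0.0737) and with the replicate block (0.114). It was also lost when any single control or Irf8 KO array was left out (limma, adjusted p up to 0.179). Of the Irf8 KO / b-cat(Ex3) arrays, leaving out replicate 1 or 4 lost it, and leaving out replicate 2 or 3 kept it. The further 0.29 ± 0.12 did not pass (adjusted p = 0.664).

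Fbp1, fructose bisphosphatase of gluconeogenesis, led the members at 1.985 (3.96-fold), and Pfkfb4, a bifunctional kinase and phosphatase that sets the level of the glycolytic activator fructose-2,6-bisphosphate, stood at 1.382 in the authors' deposited table. Fuk, the fucose-salvage kinase now named Fcsk, had 1.320 in the authors' deposited table. On the negative side stood Adk, the adenosine kinase, at −1.217, and Pank1, a pantothenate kinase of coenzyme A synthesis, at −0.985 (authors' deposited table). The fixed lists held 4 of 72 metabolic kinases in the signature (5.56%, against 2.78% of all protein-coding genes), 2 in each direction, and 4 of 45 metabolic phosphatases (8.89%), all positive, including Acpp (1.600) and the adenosine-forming nucleotidase Nt5e (1.368) in the authors' deposited table. Acpl2, now Pxylp1, an acid phosphatase-like protein, stood at 1.070 in the authors' deposited table.

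Fbp1 read 6.27, 6.52, 6.28 and 7.29 in the control arrays, 8.30, 7.38 and 8.33 in Irf8 KO and 8.31, 8.44, 8.81 and 8.73 in Irf8 KO / b-cat(Ex3). Control replicate 4 was again the highest control and came within 0.1 of Irf8 KO replicate 2, without overlap. Fbp1 rose by 1.41 ± 0.28 in Irf8 KO (2.66-fold, limma, adjusted p = 0.0236), and the further 0.57 ± 0.28 did not pass (adjusted p = 0.73). The rise lost its call without control replicate 1, 2 or 3, or without Irf8 KO replicate 1 or 3 (limma, adjusted p up to 0.13). Pfkfb4 read 4.21, 4.98, 4.55 and 5.00 in control, 6.02, 5.69 and 5.18 in Irf8 KO and 5.81, 5.80, 6.23 and 6.43 in Irf8 KO / b-cat(Ex3). Control and Irf8 KO did not overlap, yet the difference of 0.95 ± 0.24 did not pass (limma, adjusted p = 0.0847).

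Fuk had its difference spread over both steps. It read 4.20, 4.92, 4.79 and 5.36 in control, 5.99, 5.22 and 5.16 in Irf8 KO and 5.91, 6.12, 6.47 and 6.06 in Irf8 KO / b-cat(Ex3), and control and Irf8 KO overlapped. Its differences were 0.64 ± 0.26 (limma, adjusted p = 0.319) and 0.68 ± 0.26 (adjusted p = 0.636), and its probe set is of a type (_x_at) whose probes may bind other transcripts. Acpl2 averaged 8.69 ± 0.25 (SD, n = 4), 9.47 ± 0.32 (n = 3) and 9.76 ± 0.17 (n = 4) in control, Irf8 KO and Irf8 KO / b-cat(Ex3). It rose by 0.78 ± 0.17 (SE) in Irf8 KO (limma, adjusted p = 0.0428), a call lost with each array centred on its median (adjusted p = 0.0512). Fitting only the groups compared also lost the call (limma, adjusted p = 0.0672). When single arrays were left out, it held only without control replicate 4, Irf8 KO replicate 3 or Irf8 KO / b-cat(Ex3) replicate 2. Control replicate 4 was the highest control of Acpl2. Pank1 read 6.79, 6.67, 6.64 and 6.85 in control, 6.14, 6.22 and 6.20 in Irf8 KO and 5.86, 6.11, 5.74 and 5.30 in Irf8 KO / b-cat(Ex3). Its groups did not overlap, and its differences of −0.55 ± 0.16 (limma, adjusted p = 0.122) and −0.44 ± 0.16 (adjusted p = 0.616) did not pass.

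The remaining members bind enzymes or are receptors. Pstpip2, an adaptor that curbs inflammatory signalling in macrophages and neutrophils, stood at 1.273, Plaur, the urokinase receptor of myeloid cells, at 0.869, and Jakmip1, which binds Janus kinases and microtubules, at −1.123 in the authors' deposited table. Pstpip2 read 5.86, 6.0, 6.07 and 6.25 in control, 6.89, 6.60 and 6.68 in Irf8 KO and 7.16, 7.04, 7.36 and 7.71 in Irf8 KO / b-cat(Ex3). Its groups formed 3 separate steps. Irf8 KO minus control was 0.68 ± 0.16 (limma, adjusted p = 0.0562), and the further difference of 0.59 ± 0.16 had the smallest adjusted p of any matched member for that step (0.467). Jakmip1 read 5.87, 5.86, 5.59 and 6.17 in control, 5.15, 5.42 and 5.2 in Irf8 KO and 4.75, 5.10, 4.76 and 4.38 in Irf8 KO / b-cat(Ex3), again without overlap. Its differences were −0.61 ± 0.17 (limma, adjusted p = 0.117) and −0.51 ± 0.17 (adjusted p = 0.59), from a probe set of the _x_at type.

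Across the 17 matched members, Irf8 KO minus control passed for 7 genes, with Fbp1, Dgkg, Acpl2, Ppm1f and Mapkapk3 higher and Pkib and Camk2a lower. Over all 45037 probe sets 1.75% passed (0.81% higher and 0.941% lower), and among the 184 other signature genes with a single probe set of equal fold 39 (21.2%) did. For the 13 members matched by fold alone the count was 6. Control replicate 4, the array with high Cd177, was the highest control in 9 of the 12 positive matched members. Among the 5 negative ones it was the lowest control in 0. There it was the highest in Prkar2a (6.62), Pank1 (6.85), Jakmip1 (6.17) and Camk2a (5.89), and not in Pkib (8.17). It thus read high in members of both directions, and its rank over all probe sets was not counted. Without that array 9 of the 17 members passed. The count rested on single arrays and on their weighting. It was 1 without Irf8 KO replicate 1, 2 without Irf8 KO replicate 2, 3 without control replicate 1 or control replicate 2, 4 without control replicate 3, and 13 with array weights. Without Irf8 KO replicate 1 Dgkg alone passed, and Dgkg also passed in every other alternative run. Irf8 KO / b-cat(Ex3) minus Irf8 KO passed for 0 of the 17 members and for 0.00444% of all probe sets, which is 2 probe sets (limma). Before adjustment 8 members had p under 0.05 for that step, against 7.07% of all probe sets, and in every alternative run the adjusted count was 0. The choice of members used the same Irf8 KO / b-cat(Ex3) arrays, so the unadjusted count is no evidence of a further change. Among the 184 other signature genes with a single probe set of equal fold, 1 (0.543%) passed this step after adjustment. The median absolute difference was 0.68 for Irf8 KO minus control and 0.44 for Irf8 KO / b-cat(Ex3) minus Irf8 KO on the log2 scale. Irf8 KO minus control made up a median 68.45% of the whole difference in the members, beside 62.95% in the 184 other genes. A larger first step was thus not particular to the members. The intervals of the later step were wide, for Mapk13 from 0.16 to 1.47 before adjustment, so a further change was not shown to be absent. For Irf8 KO / b-cat(Ex3) minus control, the difference that chose them, all 17 passed, beside 6.13% of all probe sets, a count that the choice of members set.

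**Figure D3:**
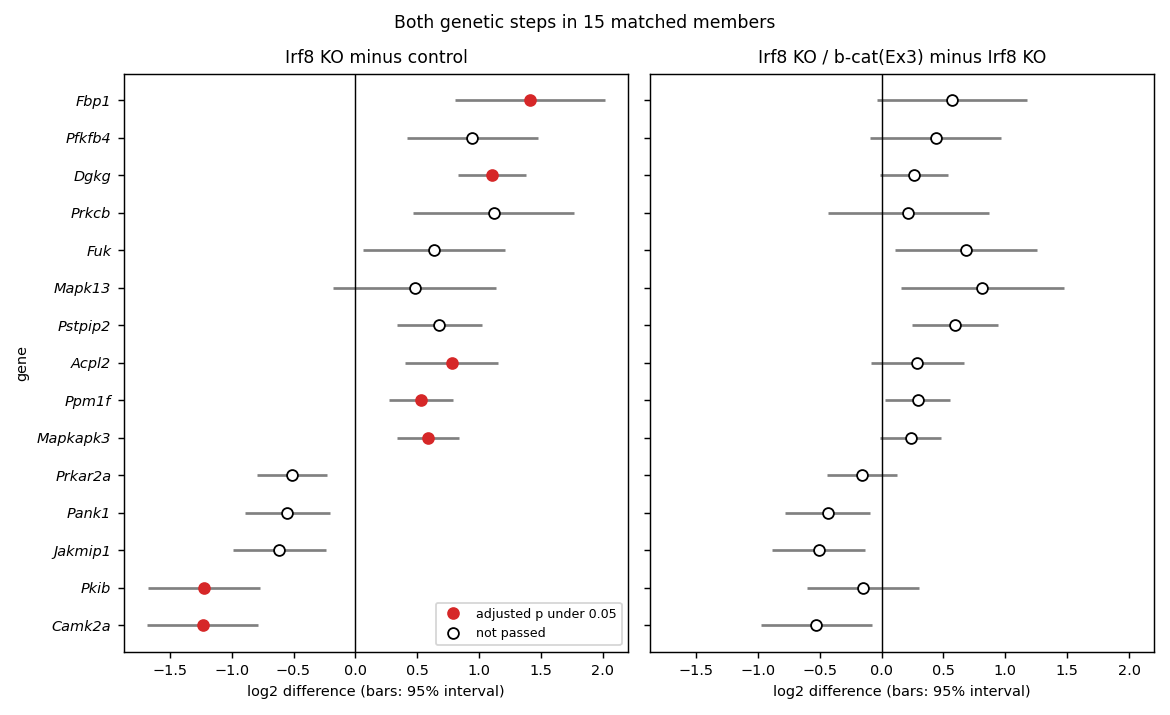
Log2 difference with its 95% interval (horizontal axis) for 15 of the 17 matched members, Irf8 KO minus control on the left and Irf8 KO / b-cat(Ex3) minus Irf8 KO on the right. Filled points, 7 on the left and 0 on the right, have a limma adjusted p under 0.05.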

How the data were processed

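GMPs of 11 arrays in 3 groups were compared. The values per array are log2 expression per probe set as the authors deposited them. How they were background-corrected and normalized is not given in the sources used here; array means ran from 4.60 to 4.62. The signature file, per the file headers, gives a p-value, a log2 change and a linear fold with a sign for each gene. The test behind its p-values is likewise not stated.

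Groups come from the sample titles. With R 4.3.3 and limma 3.58.1, all 3 groups were fitted together over 45037 probe sets, with Benjamini-Hochberg adjustment over all of them and a threshold of 0.05. The procedure was tested on simulated data. SE is limma's moderated standard error. No probe annotation was used: the planned choice of probe sets by annotation was replaced, after the data were seen, by the match of fold changes described above, and the rule on disagreeing probe sets could not be applied. Of the 35 members, 33 are named with their deposited value, and 2 are counted but not reported here. Array values are given for matched members among the 10 highest and 10 lowest deposited values, and group means for the other 4. Members, gene lists and motifs were chosen with earlier results of these data known, and roles were assigned by hand. Replicate numbers were not treated as pairs: in 1 of 10 same-numbered pairs of arrays the deviations from group means correlated above 0.1 (range −0.228 to 0.171), and the pools were independent per the series text.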

Additional observations from a re-analysis of the deposited data

Results flagged for a closer look

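In the 34 sets of 4 arrays examined for the matched members, 2 arrays lay far from the rest of their group, and chance alone flags about 1 in 20 such sets. Mapkapk3 read 8.90 in control replicate 3 and 8.54 to 8.59 in the other controls. Pkib read 7.58 in Irf8 KO / b-cat(Ex3) replicate 2 and 6.56 to 6.62 in the other arrays of that group.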

How the results depend on the processing

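Leaving out single arrays moved the Prkcb difference between the Irf8-deficient groups from 0.51 (without Irf8 KO replicate 1) to −0.0902 (without Irf8 KO replicate 3), the single reversal among the matched members. With array weights, 4395 probe sets passed for Irf8 KO / b-cat(Ex3) minus control (2761 in the fit reported), 1658 for Irf8 KO minus control (789) and 13 members for the latter (7). Fitting only the groups compared left 0 probe sets for Irf8 KO / b-cat(Ex3) minus Irf8 KO (2). Leaving out single arrays gave 1477 to 3673, 347 to 1039 and 1 to 10 probe sets for these 3 comparisons in that order, and 16 to 17, 1 to 9 and 0 members. The cause of these shifts was not tested. With the replicate block, 6 members passed for Irf8 KO minus control: among the genes named here, Pstpip2 (limma, adjusted p = 0.0249) gained the call, and Ppm1f (0.114), Mapkapk3 (0.0788) and Camk2a (0.0509) lost it. Quantile normalization kept that count at 7 and left 427 of the 638 deposited folds with a probe set of equal fold, since it alters the values matched. No pseudocount applies to values already on the log2 scale, and other choices of a gene's probe set were not run without an annotation.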
